A study of Mus musculus with 14 samples.

Results

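The replication-dependent histone genes encode the core and linker histones that package newly copied DNA. They were taken here as every gene whose symbol starts with Hist1h, Hist2h, Hist3h or Hist4h, and 1 symbol marked as a pseudogene with -ps was left out. This gave 69 genes of the 54446 in the deposited table: 6 of the linker histone H1, 20 of H2A, 18 of H2B, 12 of H3 and 13 of H4. By symbol, 56 belonged to the Hist1 cluster on chromosome 13, 10 to the Hist2 cluster on chromosome 3 and 2 to the Hist3 cluster on chromosome 11. The remaining 1, Hist4h4, lay on chromosome 6. Hist1h2al, at chr13:51202727-51203065, lies apart from the other Hist1 genes. It is annotated as a processed pseudogene and Hist1h2aj as an unprocessed pseudogene, and both were kept because their symbols lack -ps. The 69 genes were measured in liver of 5-week-old C57BL/6 mice. The controls were 6 mice labelled Mettl3 floxed, and the knockouts were 8 mice labelled Mettl3 floxed, Alb-Cre, so both groups carried the floxed allele. Mettl3 encodes the catalytic subunit of the enzyme that writes N6-methyladenosine in mRNA. In Alb-Cre mice the recombinase is made from the albumin promoter, which is active in hepatocytes and their precursors, so liver cells of other origin keep the gene. No control carried Alb-Cre without the floxed allele.

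Most cellular mRNAs end in a poly(A) tail, but replication-dependent histone mRNAs end just after a short stem-loop. The stem-loop binding protein SLBP and the U7 small nuclear RNP, which contains the proteins Lsm10 and Lsm11, direct that cut. The transcription coactivator NPAT drives these genes in S phase, and the mRNAs are normally destroyed when DNA synthesis stops. Replacement histones, such as H3.3 and H2A.Z, come from ordinary polyadenylated mRNAs and are made throughout the cell cycle. The libraries were made from total RNA with a kit that does not select for poly(A), so histone mRNAs without a tail could be read.

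The stem-loops of the genes on which the results turn are given first, since they mark where the mature histone mRNA is expected to end. Each line below is a DNA-sense sequence, 5′ to 3′, from the GENCODE M21 transcript (build GRCm38), with the 16 bases of the stem-loop in capitals and 5 bases on either side in lower case.
Hist1h1d: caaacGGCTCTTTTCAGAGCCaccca
Hist1h1c: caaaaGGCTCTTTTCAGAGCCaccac
Hist2h2aa1: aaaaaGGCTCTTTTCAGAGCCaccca
Hist2h2aa2: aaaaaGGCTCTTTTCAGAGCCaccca
Hist3h2a: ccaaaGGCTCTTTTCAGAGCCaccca
Hist2h3c2: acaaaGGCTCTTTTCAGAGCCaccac
Hist1h4h: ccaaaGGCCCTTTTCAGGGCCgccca
The 6 H1, H2A and H3 genes shown share 1 form, and Hist1h4h has another. Hist1h1d, which rose, and the 4 genes that fell carried the same stem-loop. Hist2h3b, the other gene that rose, had 37 annotated bases after its stop codon and no stem-loop in them. In Hist2h3c2 the stem-loop began 30 bases after the stop codon. One at that place in Hist2h3b would run past the annotated end, so its absence there says nothing of the gene.

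The motif searched was GGNNNNTTTNNNNNCC with its first 6 bases complementary to its last 6, on the transcript strand, within 100 bases after the stop codon. Of the 69 histone genes, 52 had at least 30 annotated bases after the stop codon, and 44 of these held the motif, against 49 of 20948 protein-coding genes (0.234%), a number that includes the histone genes. It began 21 to 58 bases after the stop codon, with a median of 31. A stem-loop running past the annotated end was missed, also among genes with at least 30 bases. There were 6 forms, of which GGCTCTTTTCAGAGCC was found in 26 genes, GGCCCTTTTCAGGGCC in 7 and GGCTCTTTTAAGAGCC in 6. In 22 genes the annotated transcript ran 100 bases or more beyond the stem-loop, which is past the usual end of a mature histone mRNA, and in another 22 it ended nearer. A value for a gene of the first kind counts reads over a longer stretch than the mature mRNA.

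The deposited values were normalised estimated counts: kallisto assigned reads to each gene, and each library's counts were divided by a size factor. Library depth ran from 11.1 to 33.8 M estimated reads. Mettl3 itself had a mean of 223 ± 23.7 in controls (SD, n = 6) and 99.5 ± 15.7 in knockouts (SD, n = 8). The groups did not overlap, and log2 levels differed by -1.17 (SE 0.12, limma adjusted p = 1.32e-05). Replicates 1 to 4 of both groups carried Y-linked transcripts and the others had high Xist, and the second class was the shallower, at 11.1 to 19.3 M estimated reads. Within it (2 controls, 4 knockouts) the Mettl3 change was -1.03 with a limma adjusted p of 0.0717. Mitochondrially encoded mRNAs took 7.85% and 7.91% of the values in knockouts 6 and 7, against 2.77% to 5.47% elsewhere. Knockouts 3, 6 and 7 had the highest S phase levels, and counts are given below without them. Genes were tested with limma on log2(value + 1) where a value of at least 10 was seen in at least 6 libraries, which 23554 genes passed, and a gene was called at a Benjamini-Hochberg adjusted p of at most 0.05 over all of them.

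Most histone genes did not pass the test in either direction. Of the 69, 38 passed the filter on low values, and 2 of these rose in knockouts, 4 fell and 32 were not called. The share called was 15.8%, against 22.4% of all genes tested. The 2 that rose (5.26%) compare with 11.5% of all genes, and the 4 that fell (10.5%) with 11.0%. At an unadjusted p under 0.05 there were 12 of 38 histone genes, against 35.0% of all genes. Their median log2 change was -0.04 (0.05 over all genes), with 19 positive and 19 negative. Without knockouts 3, 6 and 7 the median was 0.07, and 1 histone gene rose.

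The scaling bears on these counts. When every library was given the same total without its ribosomal RNA (equal sums below), the median of all genes moved up by 0.33 on the log2 scale to 0.38, and 33.3% of all genes rose while 3.68% fell. The histone median was then 0.24, with 7 genes higher and 3 lower. The 7 were Hist1h1b, Hist1h1d, Hist1h2ac, Hist1h2be, Hist1h2bg, Hist1h4i and Hist2h3b, and the 3 were Hist2h2aa1, Hist2h2aa2 and Hist3h2a.

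**Figure D1:**
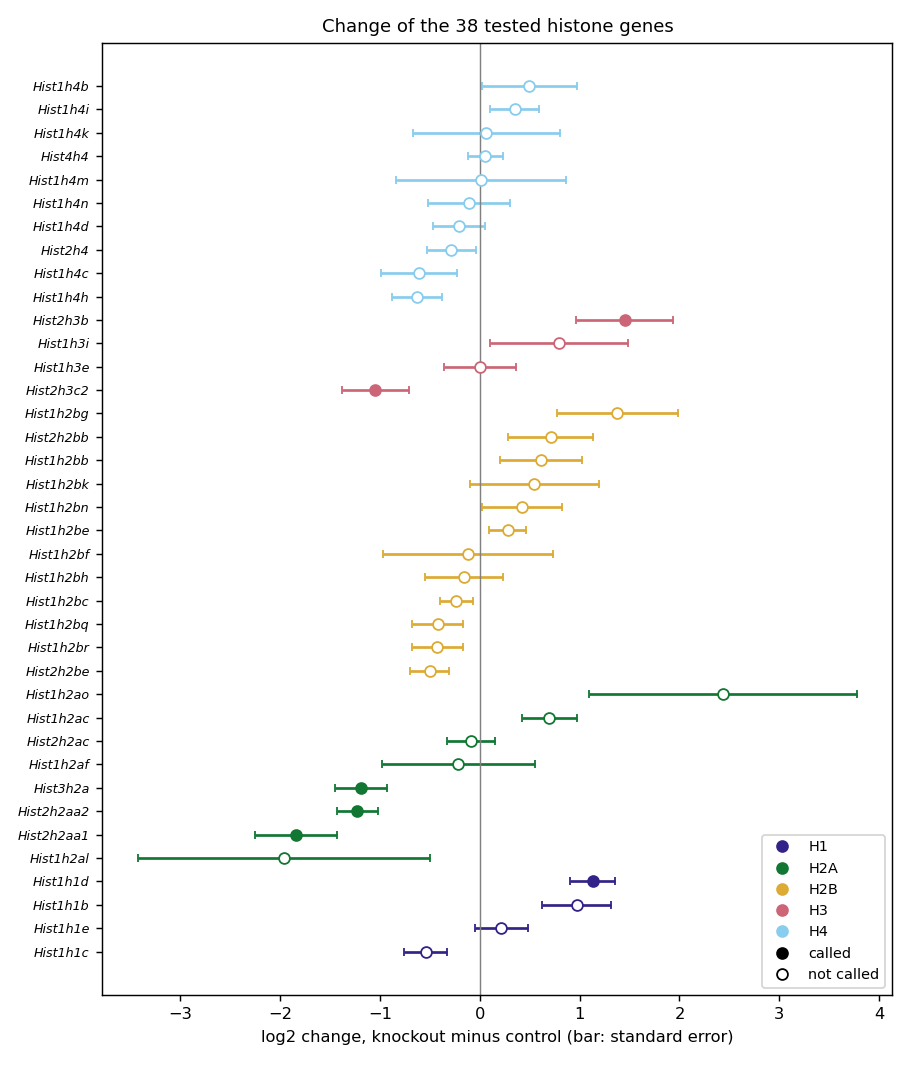
Log2 change (knockout minus control, x axis) with its standard error for each of the 38 tested histone genes, one row per gene, coloured by histone class; filled points passed the limma test and open points did not. Changes run from -1.96 (Hist1h2al, not called) to 2.44 (Hist1h2ao, not called), and the 6 filled points are Hist1h1d and Hist2h3b on the right and Hist2h2aa1, Hist2h2aa2, Hist3h2a and Hist2h3c2 on the left.

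The 31 genes that did not pass the filter had low values: their highest mean over all libraries was 47.7 (Hist1h2ap) and their median 4.93. With no filter, 3 of the 31 were called, all higher in knockouts, against 4.29% of all genes and 0.878% of the genes outside the filter called higher in the same fit. Hist1h4f, an H4 gene, was listed at 0 in 5 of 6 controls and at 4.90 in the other, and reached 21.7 in knockout 7 with a 0 in knockout 5 (limma adjusted p = 0.0135, no filter). Hist1h3d, an H3 gene, had a mean of 2.97 ± 1.31 in controls (SD, n = 6) and 9.52 ± 3.80 in knockouts (SD, n = 8), with a limma adjusted p of 0.0161 with no filter. Hist1h3g, also an H3 gene, was listed at 0 in 5 of 6 controls and in 1 of 8 knockouts (limma adjusted p = 0.0287, no filter). These are low counts, since 1 read was worth 0.604 to 1.71 on this scale.

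Summed estimated counts were spread unevenly. Hist1h2bc alone held 32.4% of the summed histone value in controls, Hist1h1c 13.1%, Hist1h2bq and Hist1h2br 11.9% each, Hist2h2aa2 9.42%, Hist2h2aa1 4.53% and Hist1h1e 3.32%, together 86.7%. Per kilobase of exon the order of the leading genes was Hist1h2bc at 2362, Hist2h2aa2 at 1503, Hist1h1c at 709 and Hist2h2aa1 at 650 in controls. Of the 69 genes, 54 were under 50 per kilobase in controls. The sum over all 69 was 8422 ± 967 in controls (SD, n = 6) and 6743 ± 969 in knockouts (SD, n = 8), with ranges of 7217 to 9434 and 5313 to 8647, and 1 of 8 knockouts lay above the control mean. The library totals differed likewise on this scale, at 24.1 M in controls and 19.1 M in knockouts. At equal sums the histone sum was 7400 ± 434 in controls and 7499 ± 827 in knockouts. Outside the 10 genes with a mean over 100, the sum over the other 59 was 898 in controls and 924 in knockouts, and the groups overlapped. At equal sums it was 790 ± 174 in controls and 1034 ± 229 in knockouts, with 6 of 8 knockouts above the control mean and the groups overlapping.

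By class, the H2A sum was the one whose groups did not overlap on the deposited scale. It was 1465 ± 242 in controls (SD, n = 6; 1093 to 1732) and 825 ± 140 in knockouts (SD, n = 8; 638 to 1082). At equal sums it was 1290 ± 194 and 919 ± 143, all 8 knockouts were below the control mean, and the groups overlapped (995 to 1515 and 702 to 1137). The linker histone sum was 1469 ± 231 in controls and 1308 ± 215 in knockouts, and the H2B sum 4938 ± 688 and 4070 ± 762. The H4 sum was 468 ± 159 and 417 ± 125. The H3 sum, the smallest, was 82.2 ± 19.4 in controls and 123 ± 42.7 in knockouts, with 7 of 8 knockouts above the control mean and the groups overlapping. At equal sums the H1 sum was 1291 in controls and 1457 in knockouts, H2B 4338 and 4522, H3 72.1 and 138 and H4 410 and 463, so that of the 5 classes only H2A kept a lower mean in knockouts. These sums are less sensitive than single genes to how reads were divided among copies, and no test was made of them.

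**Figure D2:**
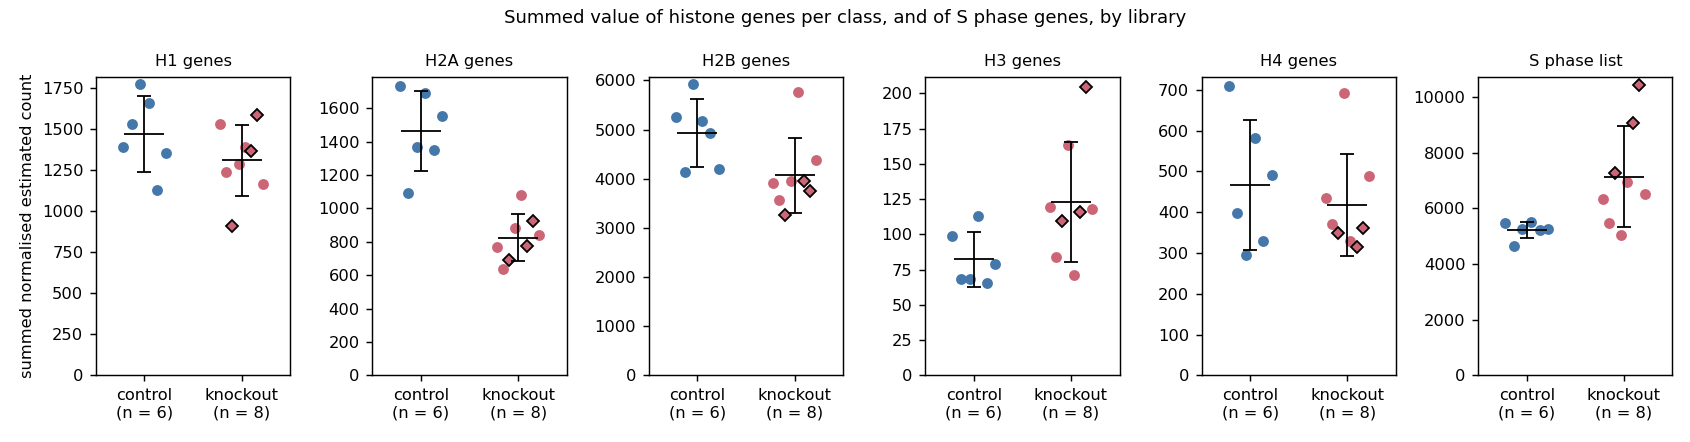
Summed normalised estimated count per library (y axis, from 0) for the 5 histone classes and for the 35 genes of the S phase list, in 6 control and 8 knockout libraries; each point is a library, diamonds are knockouts 3, 6 and 7, and the bars give the mean ± SD. The H2A sums do not overlap between groups (1093 to 1732 against 638 to 1082) on the deposited scale plotted, while those of H1, H2B, H3 and H4 do; at equal sums those of H2A overlap as well.

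Linker histones bind the DNA entering and leaving the nucleosome. Of the 6 H1 genes, 4 were tested. Hist1h1d (H1.3), annotated as 1 exon at chr13:23553262-23560686 on the plus strand, ranged in controls from 53.8 through a median of 62.9 to 97.2 and in knockouts from 80.3 through 157 to 264. All 8 knockouts lay above the control mean, and the groups overlapped only through knockout 5, the lowest knockout, and controls 1 and 4. The mean was 70.3 ± 17.6 in controls (SD, n = 6) and 160 ± 55.0 in knockouts (SD, n = 8), and on the log2 scale the gene rose by 1.13 (SE 0.23, limma adjusted p = 0.00222). Unlike most histone genes, it had few sequences in common with others: 3.72% of its 31-base words occurred in another gene. Its annotated transcript was 7425 bases long, began 1770 bases before the RefSeq start site, and continued for 4884 bases after the stem-loop, so the reads counted for it need not come from the mature histone mRNA; their position was not given by gene-level values.

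Hist1h1c (H1.2), at chr13:23738808-23740367 on the plus strand, went the other way without passing the test. Its values ran from 827 through 1121 to 1456 in controls and from 489 through 723 to 1156 in knockouts, with 1 of 8 knockouts above the control mean. Its change was -0.54 on the log2 scale (SE 0.21, limma adjusted p = 0.0843), and -0.20 at equal sums (limma adjusted p = 0.471). The call depended on which libraries entered: it was -0.98 (limma adjusted p = 0.0155) among Y-positive libraries, -0.65 (0.0341) without knockouts 3, 6 and 7, and -0.01 (0.987) among the libraries with high Xist. Knockouts 5, 6 and 7, all in the last class, held the highest Hist1h1c values of the knockouts. Without knockout 7 alone the limma adjusted p was 0.0427. Hist1h1e (H1.4), at chr13:23620629-23622558 on the minus strand, was 280 ± 88.9 and 336 ± 129, which on the log2 scale is 0.22 (SE 0.26, limma adjusted p = 0.597).

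The promoters of these 3 linker histone genes, the class members with the highest values, are shown for reference. Of the 3 only Hist1h1d was called, so a difference in sign between them is not established. Each line is the 150 bases before the RefSeq start site (GRCm38.p6), in the direction of transcription. Capitals mark the letters CCAAT (a box bound by factors such as NF-Y), TATAAA (a form of the TATA box) and AAACACA (known as the H1 box), searched on both strands, so that reverse complements are also in capitals.
Hist1h1c: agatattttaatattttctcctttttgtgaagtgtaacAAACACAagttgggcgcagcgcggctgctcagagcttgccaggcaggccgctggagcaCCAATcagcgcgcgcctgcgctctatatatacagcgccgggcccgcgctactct
Hist1h1d: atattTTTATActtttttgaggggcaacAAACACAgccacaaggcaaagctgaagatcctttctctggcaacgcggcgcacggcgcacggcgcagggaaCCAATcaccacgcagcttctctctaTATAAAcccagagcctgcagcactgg
Hist1h1e: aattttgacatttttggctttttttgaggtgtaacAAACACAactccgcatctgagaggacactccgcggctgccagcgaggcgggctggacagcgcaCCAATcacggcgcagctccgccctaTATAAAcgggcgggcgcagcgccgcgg
The windows lie at chr13:23738657-23738806 (plus), chr13:23554882-23555031 (plus) and chr13:23622559-23622708 (minus), in that order. All 3 hold AAACACA upstream of CCAAT, and TATAAA is in those of Hist1h1d and Hist1h1e but not of Hist1h1c. Among windows of 250 bases before to 50 after the start, AAACACA occurred in 5 of 6 H1 genes, in 9 of the 60 histone genes matched to a RefSeq promoter and in 7.14% of 27025 promoters. CCAAT occurred in 51 of the 60 (in all H1, H2A, H2B and H3 genes matched but only 3 of 12 H4 genes) and in 37.9% of all promoters. TATAAA occurred in 35 of the 60 and in 14.2% of all. A match describes the letters only, and no link between these letters and the changes was tested.

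The other 3 H1 genes were low. Hist1h1b (H1.5), at chr13:21779883-21780625, was 7.45 ± 5.24 in controls and 15.1 ± 8.07 in knockouts, with 7 of 8 knockouts above the control mean and a difference of 0.97 in log2 (SE 0.35, limma adjusted p = 0.0558). In the authors' deposited table its q-value was 0.0371. Of the 49 histone genes with a q-value in that table, 4 were higher and 3 lower at a q of at most 0.05, against 17.1% of all genes with one. Hist1h1a (H1.1) and the testis form Hist1h1t did not pass the filter. The 3 testis-type histone genes found among the members summed to 0.68 to 8.79 in controls and 0 to 6.92 in knockouts.

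H2A and H2B form the outer dimers of the nucleosome. Of 20 H2A genes 8 were tested, and 3 fell while none rose, where 11.0% of all genes tested fell and 11.5% rose. The Hist2h2aa genes among the 3 share their sequence, so their calls are not separate. The fall was carried by Hist2h2aa1 and Hist2h2aa2, an inverted pair of genes that encode the same type of H2A. Hist2h2aa2, at chr3:96239749-96240276 on the minus strand, ranged from 503 through 767 to 1049 in controls and from 226 through 314 to 499 in knockouts. It was the only tested histone gene whose groups did not overlap, 1 of 38 (2.63%), against 8.16% of all genes tested (4.02% lower and 4.14% higher in knockouts). At equal sums its ranges overlapped, at 418 to 855 and 277 to 525. It fell by 1.23 on the log2 scale (SE 0.21, limma adjusted p = 0.000681). Hist2h2aa1, at chr3:96245497-96246082 on the plus strand, ranged from 106 through 411 to 533 in controls and from 50.7 through 85.4 to 280 in knockouts. All 8 knockouts were below the control mean, and the overlap came from control 2, the lowest control. Its change was -1.84 on the log2 scale (SE 0.41, limma adjusted p = 0.00483).

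These genes could not be measured apart from each other. All 31-base words of Hist2h2aa2 occurred in Hist2h2aa1, and all those of Hist2h2aa1 in Gm20633, an annotated gene on the opposite strand. The pair summed to 1175 ± 244 in controls (SD, n = 6; 804 to 1501) and 451 ± 158 in knockouts (SD, n = 8; 297 to 779), without overlap of the groups. At equal sums the pair summed to 1033 and 496, and the groups overlapped through knockout 5 (819) and control 2 (732). Adding the 5 unnamed transcripts of the same loci gave 1725 in controls and 628 in knockouts, without overlap on either scale. Gm20633 itself was 18.0 in controls and 15.8 in knockouts and was not called (limma adjusted p = 0.600). Gm20634, which overlaps Hist2h2aa1 on its own strand, fell from 187 to 57.1 (log2 change -1.66, limma adjusted p = 0.000125). It also overlaps the H3 gene Hist2h3c1 and holds all of its 31-base words. The values of Gm20634, and the sum with the 5 transcripts, may thus include reads of H3 genes. Gm47311 and Gm47313, on the strand opposite each gene of the pair, had identical values and fell from 153 to 43.2 (log2 change -1.87, limma adjusted p = 0.000213). The strand setting used in quantification was not given in the sources used here, so reads of the histone genes and of these transcripts cannot be told apart. Without the pair, the other 18 H2A genes summed to 290 ± 96.6 in controls and 374 ± 118 in knockouts, with the groups overlapping. At equal sums they summed to 256 ± 90.1 and 423 ± 153, with 7 of 8 knockouts above the control mean and the groups overlapping. Among the 18 is the pseudogene Hist1h2al, which shares 79.9% of its words with each gene of the pair. It was 90.4 ± 78.2 in controls and 29.5 ± 34.2 in knockouts and was not called. The sum of the 18 may thus still include reads of the pair.

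Hist3h2a, the H2A gene of the Hist3 cluster at chr11:58954685-58956830 on the plus strand, ranged from 37.2 through 54.5 to 81.5 in controls and from 14.7 through 23.7 to 46.6 in knockouts. Knockouts 4 and 7 reached into the control range, and all 8 were below the control mean. Its change was -1.19 on the log2 scale (SE 0.26, limma adjusted p = 0.00431). It overlaps Trim17 on the same strand, and 32.1% of its 31-base words occurred in another gene. Trim17 was 28.1 in controls and 31.3 in knockouts (log2 change 0.23, limma adjusted p = 0.545), and the sum of both was 88.1 ± 15.7 and 58.0 ± 15.5, overlapping through knockout 4.

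One near-identical H2A pair moved the other way once its copies were added. Hist1h2ao (chr13:21810465-21810944) and Hist1h2ap (chr13:21833026-21833507) share 93.8% of the 31-base words of the first. In control 3 and control 4 nearly all reads were assigned to Hist1h2ap, at 110 and 53.2, with 0 or nearly 0 for Hist1h2ao. In the other 4 controls they were assigned to Hist1h2ao, at 55.7 to 62.8. Alone, Hist1h2ao had a log2 change of 2.44 with an SE of 1.34 (limma adjusted p = 0.212), and Hist1h2ap did not pass the filter. The sum of the pair was 66.2 ± 21.5 in controls (SD, n = 6; 53.2 to 110) and 214 ± 104 in knockouts (SD, n = 8; 133 to 421), and the groups did not overlap. This sum was chosen after its values were seen, and it has no test. Each shares at least 37.4% of its words with each of 12 further genes, all H2A genes but Gm11336, so reads of those genes may be included.

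**Figure D3:**
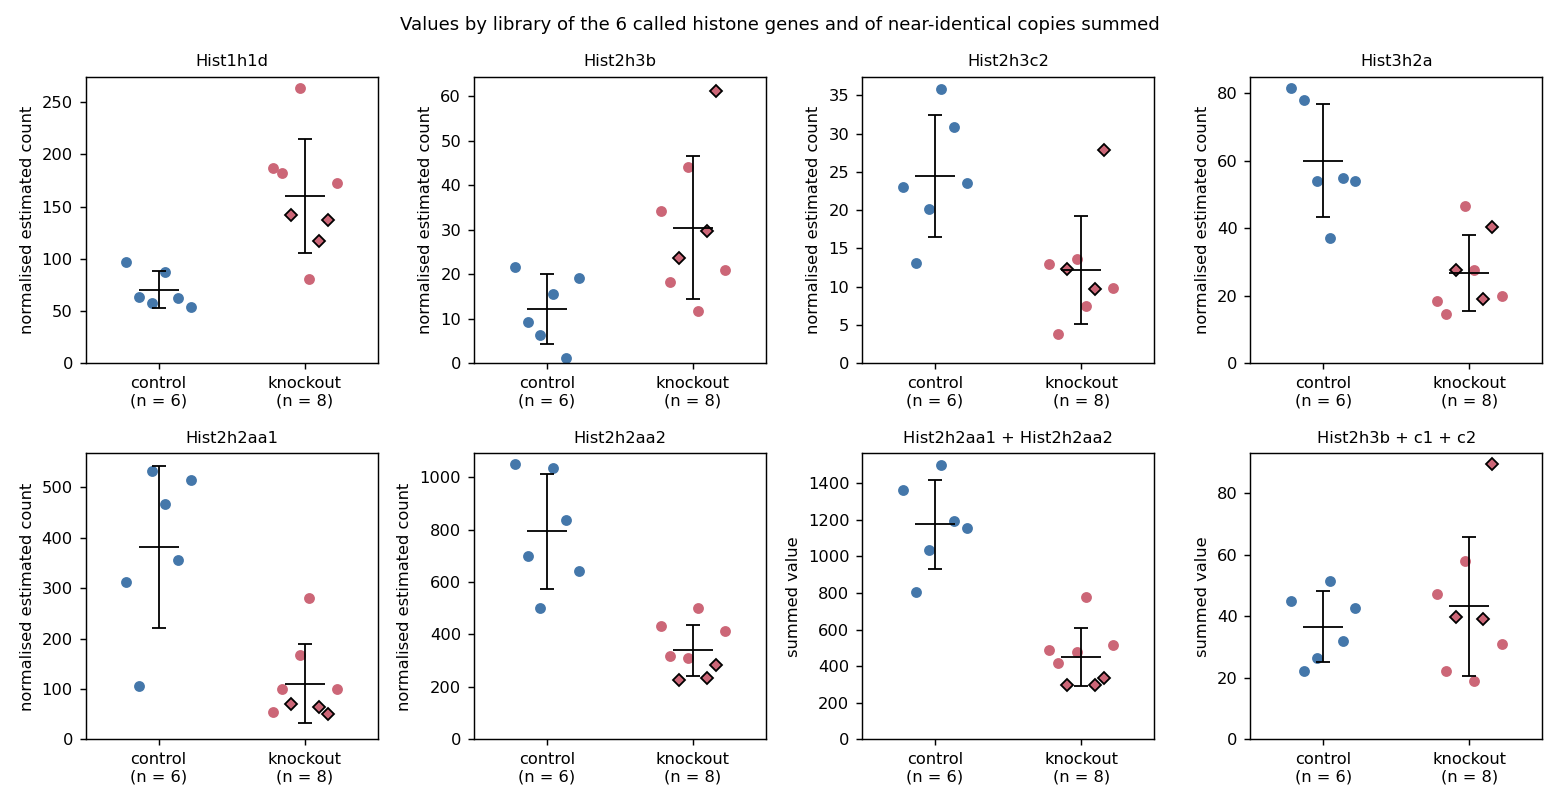
Normalised estimated count per library (y axes, from 0) of the 6 called histone genes, and 2 sums of near-identical copies, in 6 control and 8 knockout libraries; diamonds are knockouts 3, 6 and 7, and the bars give the mean ± SD. On the deposited scale plotted, the Hist2h2aa sums stay apart between groups (804 to 1501 against 297 to 779), whereas Hist2h3b and Hist2h3c2 move in opposite directions and their sum with Hist2h3c1 overlaps (22.3 to 51.4 against 19.0 to 89.3). Gm20634, which shares sequence with the Hist2h2aa and the Hist2h3 genes, is in neither sum.

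Of 18 H2B genes 12 were tested and none was called, with a median log2 change of 0.08. Hist1h2bc, at chr13:23684199-23692908 with 2 exons and no stem-loop motif in the window searched, was 2731 ± 528 in controls (SD, n = 6) and 2336 ± 519 in knockouts (SD, n = 8). The change in log2 was -0.24 (SE 0.17, limma adjusted p = 0.338), and 0.10 at equal sums. Hist1h2bq, which shares 98.3% of its words with Hist1h2br, was 1006 and 754 (log2 change -0.42, limma adjusted p = 0.256). Both genes have 6 annotated exons and no stem-loop motif in the window searched. The pair summed to 2011 ± 670 and 1504 ± 587.

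H3 and H4 form the central tetramer. Of 12 H3 genes 4 were tested, 1 rose and 1 fell. Hist2h3b, at chr3:96268654-96269141 on the plus strand, ranged from 1.13 through 12.4 to 21.7 in controls and from 11.6 through 26.7 to 61.3 in knockouts (log2 change 1.45, SE 0.49, limma adjusted p = 0.0430). Hist2h3c2, at chr3:96238108-96239127 on the minus strand, ranged from 13.1 through 23.3 to 35.8 in controls and from 3.84 through 11.1 to 27.9 in knockouts (log2 change -1.05, SE 0.33, limma adjusted p = 0.0336). Both calls were close to the threshold and each was lost when any of several single libraries was left out. The limma adjusted p of Hist2h3b was 0.153 without knockouts 3, 6 and 7, and that of Hist2h3c2 was 0.105 at equal sums. The q-value of Hist2h3c2 was 0.216 in the authors' deposited table. Every 31-base word of Hist2h3b occurred in Gm20628, on the opposite strand, and these 2 summed to 23.5 ± 5.89 in controls and 48.1 ± 18.6 in knockouts, with all 8 knockouts above the control mean and the groups overlapping slightly (13.6 to 30.3 and 29.5 to 81.3). At equal sums these did not overlap (12.9 to 26.8 and 31.3 to 95.7). The 3 Hist2h3 genes summed to 36.6 ± 11.4 in controls and 43.2 ± 22.6 in knockouts, with the groups overlapping. This sum leaves out Gm20634, which was 187 in controls and 57.1 in knockouts. Gm20634 holds 100% of the words of Hist2h3c1, 80.6% of those of Hist2h3b and 64.2% of those of Hist2h3c2. Reads of the Hist2h3 genes may therefore be counted in it, and the direction of their joint change is not settled. Hist1h3e was 17.6 ± 4.34 and 20.1 ± 11.1 (log2 change 0.00, limma adjusted p = 0.995).

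None of the 10 tested H4 genes was called, and their median log2 change was -0.05. Hist1h4h, at chr13:23531050-23531519, was 121 ± 44.7 in controls and 77.2 ± 25.5 in knockouts (log2 change -0.63, SE 0.25, limma adjusted p = 0.0837), and all 8 knockouts were below the control mean. Hist1h4d, at chr13:23581598-23582735, was 112 ± 44.5 and 94.9 ± 37.1 (log2 change -0.21, limma adjusted p = 0.605), and its change was 0.13 at equal sums. Hist4h4, the single gene on chromosome 6, was 56.8 ± 7.76 and 60.2 ± 13.2 (log2 change 0.06, limma adjusted p = 0.846).

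The called changes were compared between the library classes. Among the Y-positive libraries (4 against 4), Hist1h1d (1.33, limma adjusted p = 0.00714), Hist2h2aa2 (-1.32, 0.0119), Hist2h2aa1 (-1.74, 0.0437) and Hist3h2a (-1.27, 0.0478) passed the test. Among the libraries with high Xist (2 against 4) the log2 changes of these 4 genes were 1.06, -1.09, -2.11 and -1.07, and none passed, with limma adjusted p values of 0.157 to 0.212. Whether the changes differ between the classes was not tested.

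The S phase list held 35 genes of DNA replication, whose mRNAs are polyadenylated. Of the 34 tested, 15 rose (44.1%, against 11.5% of all genes), 2 fell and 17 were not called, with a median log2 change of 0.47. Without knockouts 3, 6 and 7, 8 rose and the median was 0.28. Those libraries were picked for their high S phase levels and fewer libraries remain, so lower numbers without them are built into the choice. Mcm6, a subunit of the replicative helicase, was 69.7 ± 21.0 in controls and 411 ± 241 in knockouts (log2 change 2.38, SE 0.34, limma adjusted p = 0.000185). Gins2, part of the same helicase complex, changed by 2.28 (limma adjusted p = 0.000238), and Uhrf1, which carries DNA methylation through replication, by 2.14 (0.00619). Thymidine kinase Tk1 (-0.68) and the polymerase alpha subunit Pola2 (-0.33) fell, and neither passed at equal sums, where the change of Pola2 was 0.01. Among the 20 genes of mitosis, 17 were tested and 9 rose, led by Ccnb2 (1.89), Ccnb1 (1.78) and Cdk1 (1.57), and 3 rose without those 3 libraries. The difference in response between the histone and S phase lists was not itself tested.

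The 2 kinds of gene were then set side by side in each library. The S phase sum was 4664 to 5499 in controls and 5027 to 10424 in knockouts, so the groups overlapped. At equal sums it was 4249 to 5124 and 5362 to 12276, without overlap. On the deposited scale the 3 highest values were in knockouts 7 (10424), 6 (9066) and 3 (7282). In those 3 libraries the sum over all 69 histone genes was 6829, 6516 and 5313, the last being the lowest of all 14. Their totals outside ribosomal RNA were also the 3 smallest, at 16.3, 16.3 and 15.2 M. At equal sums their histone sums were 8042, 7658 and 6703, and knockout 2 was the lowest of all 14 (6479). Hist1h2bc, Hist1h1c, Hist1h2bq and Hist1h2br held 69.4% of the control total, and in 3 of these no stem-loop was found. Without these 4 genes the sums in knockouts 7, 6 and 3 were 2209, 1782 and 1777. At equal sums they were 2602, 2094 and 2242, within the control range of 1821 to 2718. The Hist2h2aa pair had its 3 lowest values in knockouts 7, 6 and 3, at 334, 300 and 297 (394, 352 and 374 at equal sums). The Hist1h2ao and Hist1h2ap sum had its 3 highest there, at 421, 312 and 244 (496, 367 and 308 at equal sums). The H3 sum was highest in knockout 7 (204) and next in knockout 4 (163), whose S phase sum was the lowest of the knockouts. Knockouts 6 (116) and 3 (109) fell among the rest on the deposited scale. At equal sums knockouts 7 (241) and 4 (174) stayed the highest, and knockouts 3 (138) and 6 (136) came next. The mean log2 value of the tested histone genes was 4.97 to 5.84 in knockouts and 4.68 to 5.76 in controls. That of the S phase list was 6.52 to 7.63 in knockouts and 6.16 to 6.32 in controls, without overlap.

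**Figure D4:**
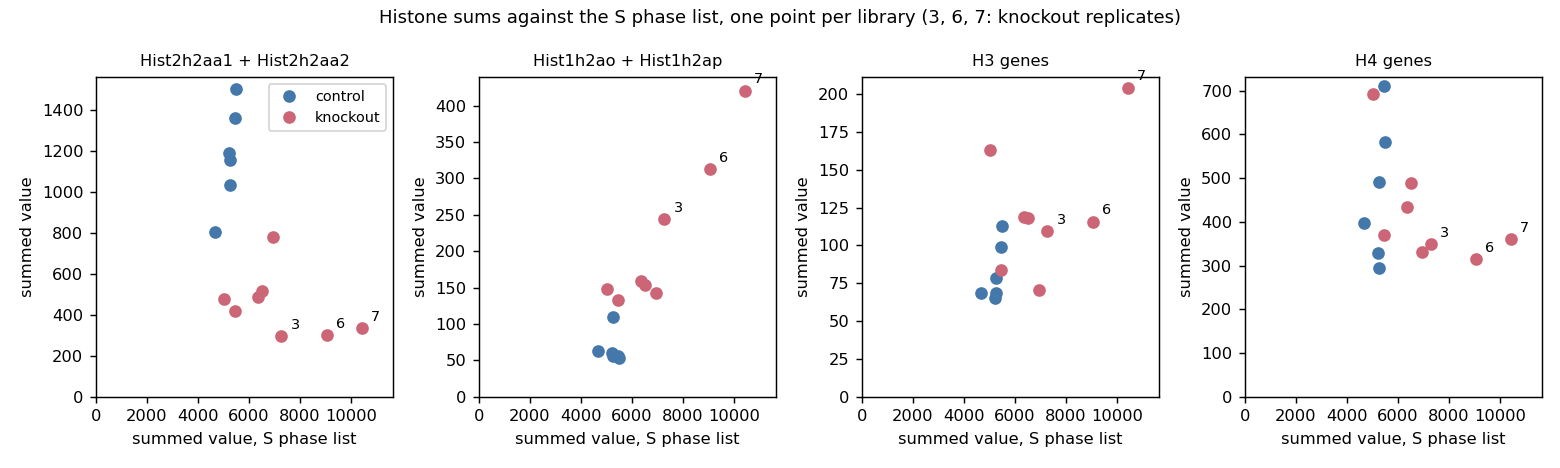
Summed normalised estimated count of 4 sets of histone genes (y axes) against that of the S phase list (x axes), 1 point per library, with knockouts 3, 6 and 7 numbered. The numbered libraries, with S phase sums of 7282 to 10424, hold the 3 lowest Hist2h2aa sums (297 to 334) and the 3 highest Hist1h2ao and Hist1h2ap sums (244 to 421), while the H4 sum shows no such order.

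Genes that process or transcribe histone mRNAs were followed as a list of 20, of which 19 were matched and tested. There were 3 that rose, 3 that fell and 13 not called, with a median log2 change of 0.02. Of all genes tested, 11.5% rose and 11.0% fell. The 3 that rose did not overlap between groups, as was so for 4.14% of all genes tested in that direction. Lsm10, a U7 snRNP protein, was 187 ± 26.5 in controls and 493 ± 62.1 in knockouts (log2 change 1.40, SE 0.11, limma adjusted p = 1.5e-06). Lsm11, its partner in the same particle, was 72.8 ± 20.5 and 195 ± 46.8 (1.42, SE 0.19, limma adjusted p = 0.000137). Coil, which encodes the Cajal body protein coilin, was 118 ± 7.11 and 194 ± 45.1 (0.68, limma adjusted p = 0.00316). The 3 that fell were Fip1l1 (-0.41) and Srrt (-0.37), which act in 3′ end formation and cap-dependent RNA processing, and the cap-binding Ncbp1 (-0.35), and none of these passed at equal sums.

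Other factors that act on histone genes or their mRNAs did not pass the test. Slbp, the stem-loop binding protein, was 330 ± 27.6 in controls and 348 ± 73.8 in knockouts (log2 change 0.05, limma adjusted p = 0.818). Npat changed by 0.02 (0.952), Casp8ap2 by 0.24 (0.472) and Zfp473, a zinc finger protein of the processing complex, by 0.35 (0.222).

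Replacement histones were measured in the same fit, with 11 genes tested, 1 higher and 2 lower and a median log2 change of -0.16. For these and the chaperones below, the shares over all genes tested were 11.5% higher and 11.0% lower. H2afx, whose protein H2A.X marks DNA breaks when phosphorylated, was 186 ± 34.9 in controls and 310 ± 41.9 in knockouts (0.74, SE 0.13, limma adjusted p = 0.0008). It is also 1 of 5 genes outside the members that held the stem-loop motif. H2afv, which encodes a form of H2A.Z, was 1250 ± 152 and 597 ± 157 (-1.10, SE 0.16, limma adjusted p = 0.000285). H1f0, the linker histone of resting cells, was 3796 ± 390 and 2449 ± 359 (-0.64, SE 0.11, limma adjusted p = 0.000737). The groups did not overlap for any of these 3, as for 8.16% of all genes tested in either direction. Of 22 histone chaperones, 2 rose and 4 fell: Chaf1a, the large subunit of the assembly factor that works at replication forks, rose from 125 ± 43.7 to 557 ± 288 (2.06, SE 0.31, limma adjusted p = 0.000299) and Mms22l changed by 1.03, while Rbbp4 (-0.72), Nasp (-0.50), Atrx (-0.48) and Supt6 (-0.46) fell, of which Rbbp4 also passed at equal sums (-0.38, limma adjusted p = 0.0402). The median log2 changes at equal sums, where all genes had 0.38, were 0.35 for the processing list, 0.18 for replacement histones and 0.29 for chaperones.

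Markers of liver cell types also moved, where 11.5% of all genes tested rose and 11.0% fell. Of 8 hepatocyte markers 6 fell, and their sum was 731743 to 870405 in controls and 347505 to 678761 in knockouts, without overlap. Of 6 cholangiocyte markers 3 rose (Sox9, Epcam and Spp1), with sums of 697 to 1247 and 1073 to 3527. There were 3 endothelial markers of 6 (Clec4g, Kdr and Fcgr2b) and 1 stellate marker of 7 (Colec11) that fell, and none was called among erythroid, B cell, T and NK cell, Kupffer cell or neutrophil markers. Of 6 pancreatic acinar markers 3 were tested: Cela1 fell, the other 2 changes were positive without passing, and the list summed to 286 to 766 in controls and 148 to 8095 in knockouts. At equal sums 4 of the 6 hepatocyte markers (Alb, Serpina1a, Cps1 and Fah) still passed, and none of the endothelial, stellate and acinar ones did. No marker of these lists was at 0 in all libraries. Their part in the histone values was not tested, and in bulk tissue fewer cells of a type and less RNA per cell cannot be told apart.

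Sharing of sequence was common to the family. In 43 of the 69 genes over 50% of the 31-base words occurred in some other annotated gene, and the median gene shared 61.9%. A word of 31 bases is the default unit of matching in kallisto, and the setting used by the authors was not given in the sources used here. Of the 21 tested genes above 50% sharing, 1 rose and 3 fell, and of the 17 at or below it, 1 rose and 1 fell. Of the 4 calls that withstood leaving out any single library, Hist1h1d shared 3.72% and Hist3h2a 32.1% of its words, while both Hist2h2aa genes shared 100%. Genes whose model ended under 100 bases past the stem-loop summed to 1506 ± 291 in controls and 934 ± 118 in knockouts without overlap on the deposited scale and with overlap at equal sums. Without the Hist2h2aa pair the same set summed to 331 ± 81.0 in controls and 483 ± 127 in knockouts, the opposite direction, with the groups overlapping. At equal sums this was 290 ± 62.1 and 544 ± 162, with all 8 knockouts above the control mean and the groups overlapping.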

How the data were processed

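Liver total RNA of 6 control and 8 knockout mice was extracted with Trizol and made into libraries with a Takara SMARTer stranded total RNA kit, per the labels' protocols. Per the submitters' processing notes, kallisto and sleuth were used on mm10, with no versions. The authors deposited 1 table of 75859 lines holding 54446 genes. The deposited signal values are estimated counts divided by a size factor per library, as the values show. In each library 31.2% to 33.6% of values above 0 and under 60 on the deposited scale came to whole reads (tolerance 0.02 reads). Depth is therefore an estimate, and whole reads could not be recovered. The p-value and q-value were deposited by the authors for 27865 genes. The authors' deposited change is a natural log (ln) of value + 0.5, control minus knockout, and was not used as log2.

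One line per gene was kept. The test was limma 3.58.1 (R 4.3.3), trended, on log2(value + 1), for values of at least 10 in at least 6 libraries, adjusted by Benjamini-Hochberg. Fold changes of low genes are understated on this scale, and the pipeline was tested on simulated data. Labels do not say more of how the mice were chosen. The limma p-values set each group difference against the spread between these samples, moderated over all genes tested. The members and lists were chosen with earlier results of these data known. Named were all called members, the 2 highest members per class and the 3 largest called changes per list, plus the specific histone factors. Other genes named beyond that were chosen after their values were seen. Gene models and stem-loops came from GENCODE M21 (GRCm38), promoters from RefSeq (GRCm38.p6), with 60 of 69 members matched by synonym at the same locus.

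The alternatives were another threshold (0.01), pseudocount (0.5, 5), filter, scaling, test, covariate, replicate block and sets of libraries. Sums over copies, and all sums at equal library totals, were chosen after seeing the data. Same-numbered libraries were checked for pairing, which was not established. One listed symbol of histone processing was misspelt and found no gene.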

Additional observations from a re-analysis of the deposited data

Results flagged for a closer look

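Of 60 groups of values checked, 7 had a library at one end that stood apart by Dixon's test, which chance does in about 1 in 20 groups. Knockout 4 stood apart for Hist1h4d (181.8, next 101) and for the H4 sum (691, next 488). Knockout 5 stood apart for the H2B sum (5774, next 4384) and for the Hist2h2aa pair (779, next 515). Knockout 7 stood apart for Hist2h3c2 (27.9, next 13.7). Control 3 stood apart for the Hist1h2ao and Hist1h2ap sum (110, next 62.8). Knockout 4 was high for Hist3h2a summed with Trim17 (92.8, next 63.3).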

How the results depend on the processing

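No called change turned its sign. Changes that were not called did: Hist1h2bc (-0.24) was 0.10 at equal sums and 0.13 in high-Xist libraries, and Hist1h4d (-0.21) was 0.13 at equal sums. The Hist1h3e log2 change (0.00) was -0.00305 at pseudocount 0.5 and in the authors' table, -0.13 by quantile normalization, -0.15 in Y-positive libraries, -0.32 with the replicate block and -0.14 to 0.21 with 1 library left out. Counts are given as higher or lower. Histone genes, with 2 higher and 4 lower, had 1 higher at an adjusted p of at most 0.01, 4 with no filter, 1 with a mean above the median, 7 at equal sums, 1 by quantile normalization, 4 by the authors' q, 1 in Y-positive and 0 in high-Xist libraries, 1 with depth as a covariate and 1 without knockouts 3, 6 and 7. The lower count was 2 with a mean above the median and 0 in high-Xist libraries. Leaving out 1 library gave 1 to 4 higher (4 without knockout 5) and 3 to 5 lower. With the replicate block 2 histone genes were higher and 6 lower, Hist1h4h among the latter (adjusted p 0.0198); same-numbered libraries correlated at 0.0707 to 0.228 and 2 of 6 controls correlated best with their own number.

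S phase, with 15 higher and 2 lower, had 8 higher at 0.01, 25 at equal sums, 5 in Y-positive, 3 in high-Xist, 8 with depth and 8 without knockouts 3, 6 and 7. The lower count was 0 at 0.01, at equal sums, in high-Xist libraries, without those knockouts and with the replicate block, 1 by the authors' q and in Y-positive libraries, and 1 to 2 with 1 library left out. Processing genes (3 and 3) had 7 higher at equal sums and 1 in high-Xist libraries, and 0 lower at 0.01, equal sums and high Xist and 1 with the block. Replacement histones (1 and 2) had 3 higher at equal sums, 2 by quantile normalization, 2 with the Xist class as a covariate and 0 in high-Xist libraries, where 0 were lower. Chaperones (2 and 4) had 7 higher at equal sums, 0 in high-Xist libraries and 1 without knockouts 3, 6 and 7, and 1 lower at equal sums and 0 in high-Xist. Mitosis (9 higher) had 2 at 0.01, 5 with no filter, 4 with a mean above the median, 17 at equal sums, 3 in Y-positive, 0 in high-Xist, 3 without those knockouts and 3 with the block, and 6 to 14 with 1 library left out (14 without knockout 4). Mettl3 was -1.03 (adjusted p 0.0717) in high-Xist libraries, which hold 2 controls. The causes of these shifts were not tested, apart from the fewer libraries or genes that some settings use. Depth limits genes with values of a few reads.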
